A study of Mus musculus with 14 samples.

Results

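Lactate dehydrogenase interconverts pyruvate and lactate, and the monocarboxylate transporters carry both across the cell membrane. The 5 genes described here are *Ldha* and *Ldhb*, which encode the enzyme's A and B subunits, *Ldhb-ps*, a processed pseudogene of *Ldhb*, and the transporter genes *Slc16a1* (MCT1) and *Slc16a3* (MCT4). They were taken by name, 5 of 33939 genes measured. *Ldhb* and *Ldhb-ps* were selected on their lower values in cKO than in Ctrl in these same libraries, and the others as their relatives, so the values of these 5 genes in cKO against Ctrl within a hemisphere are a description with no test. CD11b+ cells, microglia with other myeloid cells, had been isolated by magnetic sorting from brains 3 days after a controlled cortical impact, a traumatic brain injury (TBI) to 1 hemisphere, and the RNA was sequenced. Ctrl mice carried Cx3cr1-CreER+/- and cKO mice carried Cx3cr1-CreER+/- together with a homozygous floxed allele, and all were C57BL/6 males of 8 to 12 weeks that had received Tamoxifen, so the Cre and the drug were shared by both genotypes. The contralateral (CL) and ipsilateral, injured (IL) hemispheres gave 4 libraries each in Ctrl and 3 each in cKO, 14 in all from 8 numbered mice, and 6 mice gave both hemispheres. The CL hemisphere belonged to an injured mouse and is not an uninjured brain. The Cx3cr1 promoter is active in microglia and also in other macrophages and monocytes, so recombination was not limited to microglia by the driver alone. The authors describe a waiting period between Tamoxifen and injury, meant to let peripheral Cx3cr1+ monocytes be replaced.

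As background, the active enzyme is a tetramer of A and B subunits. The A subunit is the form associated with glycolytic cells that make lactate, and the B subunit with tissues that take lactate up and oxidise it. MCT1 is broadly expressed with high affinity for lactate, whereas MCT4 has low affinity, is found in glycolytic cells and exports lactate. *Ldha* and *Slc16a3* are known targets of the hypoxia-inducible factor HIF-1, and macrophages activated by inflammatory stimuli are known to raise glycolysis. Both transporters move lactate together with a proton.

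*Ldha* lies at chr7:46841475-46855627 on the plus strand (GRCm38), *Ldhb* at chr6:142490249-142507957 on the minus strand, *Slc16a1* at chr3:104638668-104658462 on the plus strand and *Slc16a3* at chr11:120948480-120960868 on the plus strand. *Ldhb-ps* (Ensembl gene ENSMUSG00000045104, named Gm5514 in GENCODE) is an intronless copy at chr19:21937380-21938381 on the plus strand. Over the coding sequence it is 98.0% identical to *Ldhb*, with 20 mismatches and 3 gap columns, and the longest identical run holds 148 bases. *Ldha* and *Ldhb* are 71.7% identical over theirs, and *Slc16a1* and *Slc16a3* 58.5%. The start of the coding sequence is shown for *Ldhb* and its copy because it holds both the stretches that cannot be told apart and the differences that can. It covers the first 150 bases, from 2 exons of *Ldhb* (chr6:142505412-142505540 and chr6:142501437-142501457) and from chr19:21937380-21937529, and the 5 bases that differ are in capitals.
Ldhb: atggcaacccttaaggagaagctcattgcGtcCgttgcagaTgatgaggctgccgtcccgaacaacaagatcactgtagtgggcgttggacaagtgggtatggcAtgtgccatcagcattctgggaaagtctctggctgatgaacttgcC
Ldhb-ps: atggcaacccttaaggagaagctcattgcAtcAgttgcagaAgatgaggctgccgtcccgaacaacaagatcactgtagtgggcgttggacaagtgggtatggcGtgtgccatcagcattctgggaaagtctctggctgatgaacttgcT
Of the 1255 stretches of 50 bases in the principal *Ldhb* transcript, 339 (27.0%) also occur in *Ldhb-ps* and in no other annotated transcript, which is 35.6% of the 953 stretches of the copy. A read or read pair lying wholly within such a stretch matches both genes, while a longer read or its mate may reach a mismatch. Read length and mapping were not examined. Among values under 2000 reads, 12 of 12 for *Slc16a1* were whole numbers of reads within 0.03 of a read, and 2 of 3 for *Slc16a3*, but 0 of 6 for *Ldhb* and 0 of 7 for *Ldhb-ps*. The values of *Ldhb* and *Ldhb-ps* are therefore given singly and as a sum, and the split between them is uncertain. *Ldha* shares 19.1% of its stretches with processed pseudogenes of its own, the highest of which reached 21.7 CPM, and *Slc16a1* and *Slc16a3* share none.

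Values are reads per 1000000 reads of a library (CPM), and depth ranged from 12.2 to 41.6 M reads per library (1 M is 1000000) with a median of 34.2 M. The summed level of 10 microglial markers, all detected, ranged over the libraries from 33525 to 38263 CPM in CL and 19426 to 23959 CPM in IL of Ctrl mice, and from 34114 to 36442 CPM and 21046 to 22950 CPM in cKO mice. For 10 markers of infiltrating monocytes, all detected, the ranges were 159 to 765 CPM and 1650 to 2288 CPM in Ctrl, and 177 to 456 CPM and 772 to 1436 CPM in cKO. For 10 neutrophil markers they were 619 to 8449 CPM and 205 to 1138 CPM in Ctrl, and 653 to 1832 CPM and 282 to 462 CPM in cKO. Sums for 6 border macrophage markers lay between 157 and 746 CPM, and those for 5 red cell genes between 15.1 and 394 CPM. Lists of 8 markers each reached at most 364 CPM for endothelial cells, 312 for oligodendrocytes, 232 for astrocytes, 21.5 for neurons and 18.9 for T and NK cells, and in each of the last 2 lists 4 of 8 markers were below 1 CPM in every library.

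The question put to the hemispheres is how these genes respond to injury. *Ldha* was higher in the injured hemisphere of every mouse with both, and so was *Slc16a3*, while *Ldhb* and its copy were lower in every such mouse, and *Slc16a1* was not called in either genotype without the mouse as a term. In Ctrl CL, *Ldha* had 677, 577, 318 and 430 CPM in mice 3541, 3545, 3546 and 3551, and in Ctrl IL of the same mice 979, 1177, 783 and 753 CPM. The lowest IL library was above the highest CL library. The means were 501 ± 158 and 923 ± 197 CPM (SD, n = 4 each), 1.84-fold higher in IL. In cKO CL the values were 435, 579 and 352 CPM in mice 788, 791 and 3592, and in cKO IL 967, 1251 and 833 CPM in mice 784, 791 and 3592. These groups did not overlap either, with means of 455 ± 115 and 1017 ± 214 CPM (SD, n = 3 each), 2.23-fold higher in IL. Within a mouse the IL to CL ratio ran from 1.45 to 2.46 in the 4 Ctrl mice, and was 2.16 and 2.37 in the 2 cKO mice. To be called, a gene needed an adjusted p (limma, Benjamini-Hochberg over all genes tested) of 0.05 or less together with a 1.2-fold difference or more. In cKO *Ldha* was called (log2 difference 1.23, SE 0.23, adjusted p = 0.00963), and it stayed so when any 1 library was left out. In Ctrl it was not called without the mouse as a term (1.0, SE 0.29, adjusted p = 0.0698), was called with the mouse as a block (adjusted p = 0.00216), and was called without the CL library of mouse 3541 (adjusted p = 0.0466) or the IL library of mouse 3546 (adjusted p = 0.046). The exact two-sided permutation test of the CPM in Ctrl, which took no account of the mouse, gave p = 0.0286, the smallest it can give for 4 against 4 libraries. In cKO the same test cannot go under 0.1 and gave 0.1.

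**Figure D1:**
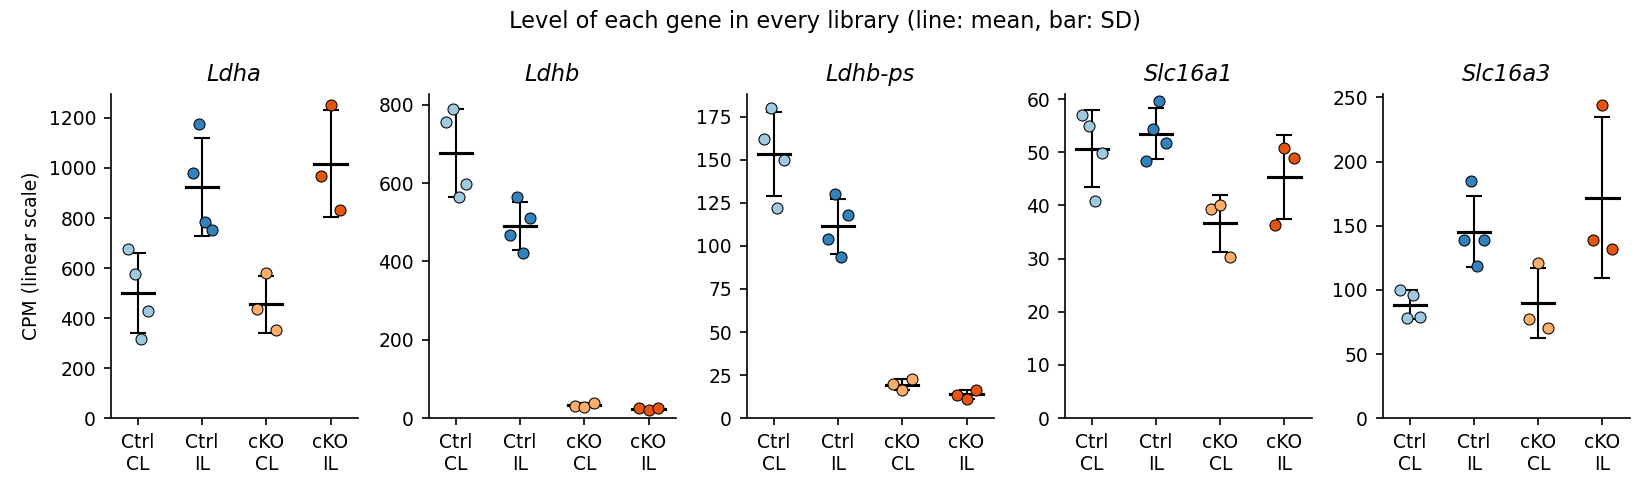
CPM (y axis, linear, from 0, with its own scale in each panel) of *Ldha*, *Ldhb*, *Ldhb-ps*, *Slc16a1* and *Slc16a3* in the 4 groups on the x axis, where each point is a library, the line the mean and the bar the SD. *Ldha* and *Slc16a3* sit higher in IL than in CL in both genotypes without overlap, and all cKO libraries of *Ldhb* lie between 20.9 and 39.9 CPM against 421 to 790 CPM in Ctrl.

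*Slc16a3*, the lactate exporter MCT4, had 99.7, 78.3, 96.4 and 79.1 CPM in Ctrl CL of mice 3541, 3545, 3546 and 3551, and 139, 185, 119 and 139 CPM in Ctrl IL. In cKO CL it had 77.4, 121 and 70.6 CPM in mice 788, 791 and 3592, and in cKO IL 139, 244 and 132 CPM in mice 784, 791 and 3592. The hemispheres did not overlap in either genotype, and the IL library of mouse 791 stood above the others of its group. IL was 1.65-fold higher in Ctrl (means 88.4 ± 11.3 and 146 ± 27.8 CPM, SD, n = 4 each) and 1.91-fold higher in cKO (89.8 ± 27.6 and 172 ± 62.6 CPM, SD, n = 3 each). *Slc16a3* was called in both genotypes by limma, in Ctrl with a log2 difference of 0.79 (SE 0.19, adjusted p = 0.0358) and in cKO with 0.98 (SE 0.29, adjusted p = 0.0456). These calls were near the threshold. In Ctrl the call was lost without the CL library of mouse 3545 (adjusted p = 0.118), 3546 (0.0721) or 3551 (0.0933), or without the IL library of mouse 3541 (0.122), 3545 (0.111) or 3551 (0.0744). In cKO it was lost without the CL library of mouse 788 (adjusted p = 0.111) or 3592 (0.0854), or without the IL library of mouse 784 (0.0798) or 791 (0.106). Both calls were also lost with no filter on low values (adjusted p = 0.145 in Ctrl and 0.0975 in cKO) and when the 4 groups were fitted together (0.0518 and 0.053). The exact permutation test gave p = 0.0286 in Ctrl.

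*Ldhb*, the B subunit, moved the other way from *Ldha*. In Ctrl CL it had 756, 790, 564 and 598 CPM in mice 3541, 3545, 3546 and 3551, and in Ctrl IL 468, 564, 421 and 511 CPM. The CL values lay higher, but the highest IL library and the lowest CL library met, both at 564 CPM after rounding. In cKO CL it had 31.6, 28.7 and 39.9 CPM in mice 788, 791 and 3592, and in cKO IL 24.7, 20.9 and 26 CPM in mice 784, 791 and 3592, without overlap. IL stood at 0.725 of CL in Ctrl and at 0.714 in cKO, and within the mice the ratio ran from 0.62 to 0.854. The log2 difference was -0.37 (SE 0.19, adjusted p = 0.305, limma) in Ctrl and -0.40 (SE 0.13, adjusted p = 0.0632) in cKO, so that *Ldhb* was called in neither. With the mouse as a block it was called in Ctrl (adjusted p = 0.0288), and in cKO it was called without the CL library of mouse 791 (-0.50, adjusted p = 0.0432). *Ldhb-ps* ran alongside. It had 162, 180, 122 and 150 CPM in Ctrl CL and 104, 130, 93.6 and 118 CPM in Ctrl IL of the same 4 mice, then 19.7, 16.1 and 22.7 CPM in cKO CL and 13.6, 11.3 and 16.4 CPM in cKO IL. The IL and CL libraries of each genotype overlapped, and the log2 differences were -0.37 (SE 0.19, adjusted p = 0.292) in Ctrl and -0.41 (SE 0.16, adjusted p = 0.0996) in cKO. The block brought the copy past the threshold in Ctrl too (adjusted p = 0.0164).

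*Slc16a1*, the transporter MCT1, had 57.1, 55.0, 40.8 and 49.8 CPM in Ctrl CL of mice 3541, 3545, 3546 and 3551, against 48.4, 54.3, 59.6 and 51.8 CPM in Ctrl IL. It was higher in IL in 2 mice and lower in 2, and the groups overlapped. The log2 difference in Ctrl was 0.17, with a 95% interval from -0.19 to 0.53 (adjusted p = 0.618, limma). In cKO CL it had 39.4, 40.1 and 30.4 CPM in mice 788, 791 and 3592, and in cKO IL 36.3, 50.9 and 48.9 CPM in mice 784, 791 and 3592. It was higher in IL in both mice that gave both hemispheres, by 1.27-fold and 1.61-fold, though the groups overlapped, and the log2 difference of 0.36 (95% interval -0.03 to 0.75, adjusted p = 0.162) was not called. The fit with the mouse as a block, in which mice 784 and 788 with 1 hemisphere each carry no information, called it (0.57, adjusted p = 0.0321), and treating the mouse as a random effect in a fit over all groups did not (0.41, adjusted p = 0.0911).

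**Figure D2:**
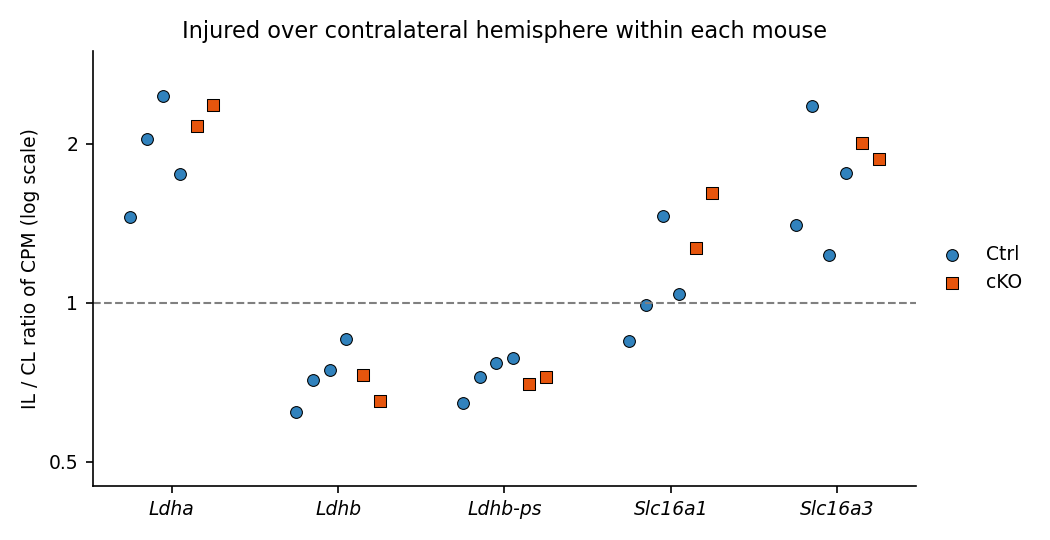
Ratio of IL to CL CPM within each mouse (y axis, log scale, dashed line at 1) for the 5 genes on the x axis, where circles are the 4 Ctrl mice and squares the 2 cKO mice with both hemispheres. All 6 points of *Ldha* and *Slc16a3* lie above 1, all 6 of *Ldhb* and *Ldhb-ps* lie below 1, and those of *Slc16a1* run from 0.847 to 1.61.

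Of the 5 genes, 1 was called between IL and CL in Ctrl, where 7.52% of the 16376 genes tested were called (1231 genes, or 3349 with the mouse as a block), 4.18% higher and 3.33% lower. In cKO 2 of 5 were called, where 23.1% of the 16758 genes tested were called (3870, or 2458 with the block), 12.3% higher and 10.8% lower. With the block the 5 genes had 4 calls in Ctrl and 3 in cKO. Libraries without overlap and higher in IL were found for 6.26% of genes in Ctrl and 18.1% in cKO, and lower in IL for 11.4% and 24.3%. With 5 genes these shares leave little to read from the counts. The difference between the genotypes in the response to injury, fitted as an interaction over all 14 libraries, was called for 0 of 18476 genes (490 had an unadjusted p under 0.05, limma), and so for none of the 5. It was 0.20 (95% interval -0.75 to 1.14) for *Ldha*, -0.06 (-0.64 to 0.52) for *Ldhb*, -0.08 (-0.67 to 0.52) for *Ldhb-ps*, 0.16 (-0.39 to 0.71) for *Slc16a1* and 0.15 (-0.65 to 0.96) for *Slc16a3*, all on the log2 scale with adjusted p = 1.0, intervals that leave room for a sizeable difference either way. In the injured hemisphere the summed microglial markers were lower and the summed monocyte markers higher, as given above. Of the 10 microglial markers, 10 had a lower mean in IL in Ctrl and 8 in cKO, where *Itgam* (1112 and 1280 CPM in CL and IL) and *Aif1* (313 and 323 CPM) did not. Of the 10 monocyte markers, 8 had a higher mean in IL in Ctrl and 9 in cKO, with *Thbs1* (48.6 and 1153 CPM in CL and IL of Ctrl) and *Fn1* (27.4 and 457 CPM) giving most of the sum in IL. The monocyte markers *Ly6c2* (30.4 and 11.6 CPM) and *Chil3* (236 and 104 CPM) were lower in IL of Ctrl, and *Chil3* in cKO too (73.7 and 62.2 CPM). All 10 neutrophil markers had a lower mean in IL in both genotypes, and their sum averaged 3922 and 573 CPM in CL and IL of Ctrl and 1167 and 379 CPM in cKO. Astrocyte markers summed to 212 to 232 CPM in CL and 125 to 179 CPM in IL of Ctrl. T and NK cell markers summed to 9.33 to 18.9 CPM and 4.36 to 5.8 CPM there. Both sums were lower in IL of Ctrl without overlap, and overlapped in cKO. The largest change in the astrocyte sum was that of *Slc1a3* (174 and 73.5 CPM in CL and IL of Ctrl). Of the 8 astrocyte markers, 5 had a higher mean in IL of Ctrl, among them *Gfap* (9.42 and 33.9 CPM), and 3 a lower mean. Of the 8 T and NK cell markers, 2 had a higher mean there and 6 a lower mean. The part of these cells in the results was not tested. In such bulk samples fewer cells of a type and less RNA per cell cannot be told apart.

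Between the genotypes, *Ldhb* and its copy differed by far more than the other 3 genes, of which only *Slc16a1*, and only in CL, had libraries without overlap. *Ldhb* averaged 677 ± 113 CPM in Ctrl CL and 33.4 ± 5.83 CPM in cKO CL, 20.3-fold lower, and in IL it averaged 491 ± 61.2 CPM for Ctrl and 23.8 ± 2.62 CPM for cKO, 20.6-fold lower (SD, n = 4 Ctrl and 3 cKO). The fitted log2 differences were -4.26 (SE 0.19) in CL and -4.29 (SE 0.16) in IL. *Ldhb-ps* was 7.87-fold lower in CL (means 153 ± 24.3 and 19.5 ± 3.32 CPM) and 8.09-fold lower in IL (111 ± 15.7 and 13.8 ± 2.58 CPM), with log2 differences of -2.88 (SE 0.19) and -2.91 (SE 0.18). No cKO library of either gene came near a Ctrl library. Over all genes, 0.668% of 16919 were called between the genotypes in IL (0.372% higher and 0.296% lower in cKO) and 0.903% of 16603 in CL (0.536% and 0.367%). Libraries without overlap were found for 4.84% of genes higher and 5.47% lower in IL, and for 3.97% and 6.02% in CL. *Ldhb* and *Ldhb-ps* were listed for this contrast, so nothing is read from their place in it.

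*Ldha* did not follow. Its log2 difference between cKO and Ctrl was -0.07 (95% interval -0.73 to 0.59) in CL and 0.16 (-0.42 to 0.74) in IL, and the libraries overlapped in both. For *Slc16a3* it was 0.03 (-0.43 to 0.48) in CL and 0.22 (-0.42 to 0.85) in IL, with overlap. *Slc16a1* was at 0.724 of Ctrl in cKO CL, where its highest cKO library (40.1 CPM) lay just under its lowest Ctrl library (40.8 CPM), and at 0.847 in IL, where the libraries overlapped. Its log2 differences were -0.42 (95% interval -0.85 to 0.01) and -0.23 (-0.55 to 0.09). They became -0.26 in CL without the cKO library of mouse 3592, and -0.08 in IL without that of mouse 784. The differences of *Ldha* and *Slc16a3*, all near 0, changed sign when single libraries were left out. The comparisons within a hemisphere and within a genotype share libraries and are set side by side only.

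**Figure D3:**
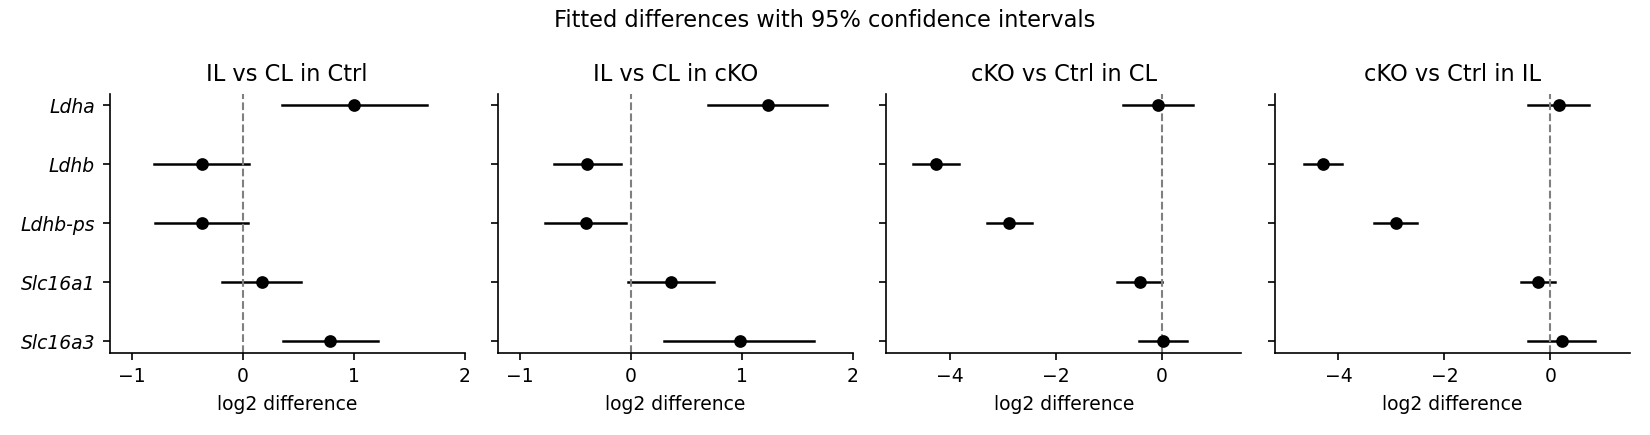
Log2 difference (x axis, log2(CPM + 1) scale) with its 95% confidence interval for each gene (y axis) in 4 comparisons, which are the hemispheres of each genotype (IL minus CL) and the genotypes of each hemisphere (cKO minus Ctrl), with a wider x range in the genotype panels. *Ldhb* and *Ldhb-ps* lie between -4.29 and -2.88 in the genotype panels, and the other 3 genes between -0.42 and 0.22. The genotype panels are a description with no test.

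*Ldhb-ps* and *Ldhb* did not fall by the same factor between the genotypes. Per 100 reads of *Ldhb* there were 21.4 to 25 of *Ldhb-ps* in Ctrl CL and 22.2 to 23.0 in Ctrl IL, but 56.0 to 62.3 in cKO CL and 53.9 to 63.3 in cKO IL. Between hemispheres the ratio barely moved, with group means of 22.7 and 22.6 in Ctrl (exact permutation p = 1.0) and 58.4 and 57.4 in cKO (p = 0.7, where the smallest possible is 0.1). Added together, *Ldhb* and *Ldhb-ps* gave 830 ± 135 CPM in Ctrl CL, 602 ± 76.9 in Ctrl IL, 52.9 ± 9.04 in cKO CL and 37.6 ± 5.14 in cKO IL, so the sum was 15.7-fold lower in cKO CL and 16.0-fold lower in cKO IL. Both parts of the sum were lower in cKO. Provided no shared read was counted for both genes or for neither, the sum does not depend on how reads were split between them. That condition was not checked. Between hemispheres of Ctrl the sum was lower in IL in 4 of 4 mice (exact permutation p = 0.0571).

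The makeup of the lactate dehydrogenase reads followed. In Ctrl CL, *Ldhb* with its copy made up 57.5, 62.7, 68.3 and 63.5% of the reads of all 3 genes in mice 3541, 3545, 3546 and 3551, and in Ctrl IL 36.9, 37.1, 39.6 and 45.5%. The hemispheres did not overlap, and the mean fell by 23.2 percentage points, from 63.0 to 39.8% (exact permutation p = 0.0286, the smallest possible), in 4 of 4 mice. In cKO CL the share was 10.6, 7.17 and 15.1% in mice 788, 791 and 3592, and in cKO IL 3.8, 2.51 and 4.84% in mice 784, 791 and 3592, again without overlap (exact permutation p = 0.1, the smallest possible). *Ldhb* and its copy together were thus the larger part of the reads in CL of Ctrl mice and the smaller part in every other group. The total of the 3 genes was 1331 ± 287 CPM in Ctrl CL, 1525 ± 254 in Ctrl IL, 508 ± 106 in cKO CL and 1055 ± 209 in cKO IL. In Ctrl, where *Ldha* was higher and *Ldhb* lower in IL, the total was higher in IL in 3 of 4 mice, with ratios from 0.973 to 1.29 (exact permutation p = 0.343). In cKO it was 2.06-fold and 2.11-fold higher in IL in the 2 mice with both hemispheres, and whether that differs from Ctrl was not tested.

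**Figure D4:**
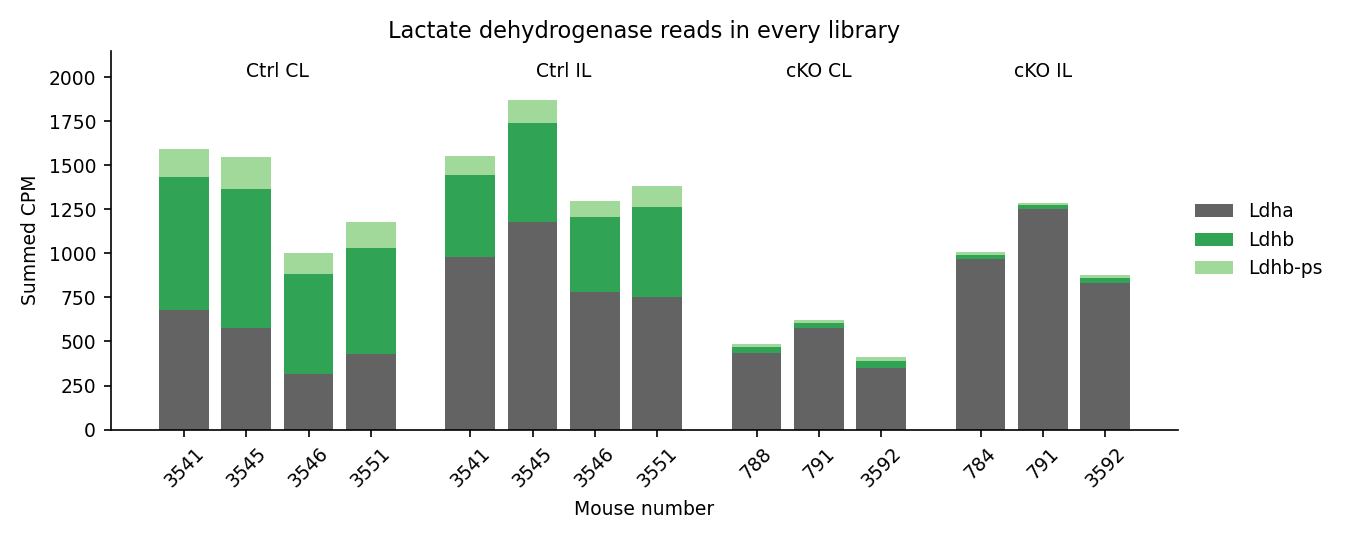
Stacked CPM (y axis, linear, from 0) of *Ldha*, *Ldhb* and *Ldhb-ps* in each of the 14 libraries, ordered by group and labelled by mouse number on the x axis. The green parts, *Ldhb* and its copy, make up 36.9 to 68.3% of the bar in Ctrl libraries and 2.51 to 15.1% in cKO libraries.

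For the transporters, *Slc16a3* held the larger share of the reads in every library. It made up 58.8 to 70.3% of *Slc16a1* and *Slc16a3* together in Ctrl CL and 66.6 to 77.3% in Ctrl IL, then 66.2 to 75.2% in cKO CL and 73.0 to 82.7% in cKO IL. The share was higher in IL in 3 of 4 Ctrl mice, with mouse 3546 going from 70.3 to 66.6%, and the exact permutation test gave p = 0.0571. Both cKO mice with 2 hemispheres went up (75.2 to 82.7% and 69.9 to 73.0%). The sum of both transporters was 139 CPM in Ctrl CL and 199 CPM in Ctrl IL on average, without overlap and higher in 4 of 4 mice (exact permutation p = 0.0286), and 126 and 217 CPM in cKO.

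Levels of different genes are compared per kilobase of the principal transcript. In Ctrl CL the order was *Ldhb* (519 ± 86.3 CPM per kb, SD, n = 4), *Ldha* (315 ± 99.7), *Ldhb-ps* (153 ± 24.3), *Slc16a3* (38.9 ± 4.95) and *Slc16a1* (11.4 ± 1.64), and no neighbours in it overlapped. In Ctrl IL *Ldha* (581 ± 124) stood before *Ldhb* (377 ± 46.9), *Ldhb-ps* (111 ± 15.6), *Slc16a3* (64.1 ± 12.3) and *Slc16a1* (12.1 ± 1.07), also without overlap. In cKO CL *Ldha* (287 ± 72.5 CPM per kb, n = 3) was followed by *Slc16a3* (39.5 ± 12.1), *Ldhb* (25.6 ± 4.47), *Ldhb-ps* (19.4 ± 3.31) and *Slc16a1* (8.28 ± 1.23), where the lowest *Slc16a3* library (31.1) was just above the highest of *Ldhb* (30.6), and *Ldhb* (22.0 to 30.6) overlapped with its copy (16.0 to 22.6). In cKO IL the order was the same, with *Ldha* at 640 ± 135, *Slc16a3* at 75.6 ± 27.6, *Ldhb* at 18.3 ± 2.01, *Ldhb-ps* at 13.7 ± 2.58 and *Slc16a1* at 10.2 ± 1.8. There *Ldhb* (16.0 to 19.9) and its copy (11.2 to 16.4) overlapped, and so did the copy and *Slc16a1* (8.19 to 11.5). The order depends on the length used. With all annotated exons merged, which takes *Ldha* from 1588 to 3310 bases, *Ldhb* (313 CPM per kb) stands above *Ldha* (279) in Ctrl IL, and *Ldha* (151) next to *Ldhb-ps* (153) in Ctrl CL. In cKO CL *Slc16a3* (16.9) then stands below *Ldhb* (21.3) and *Ldhb-ps* (19.4), with overlap among the 3, while the order in cKO IL is kept.

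The region before a RefSeq start of *Ldha* is shown because *Ldha* and *Slc16a3* moved together and both are known HIF-1 targets. It spans the 250 bases upstream of that start (chr7:46845554-46845803, plus strand, GRCm38.p6). Matches to ACGTG, 1 form of the HIF core, on either strand are in capitals, where CACGTG holds both orientations and counts as 1 match.
Ldha: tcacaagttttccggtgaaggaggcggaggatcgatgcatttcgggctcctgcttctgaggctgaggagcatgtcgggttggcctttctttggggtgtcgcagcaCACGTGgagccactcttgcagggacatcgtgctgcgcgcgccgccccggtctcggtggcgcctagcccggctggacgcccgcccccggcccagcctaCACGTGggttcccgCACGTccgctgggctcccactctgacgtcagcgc
This window holds 3 matches. The window of the other RefSeq start of *Ldha* in the table used holds 0. The GENCODE gene begins upstream of both windows, and no window was read there. The window of *Slc16a3* (chr11:120948817-120949066, plus strand) holds 2 matches, that of *Slc16a1* 1 and that of *Ldhb* 0, and *Ldhb-ps* is named only. The GENCODE gene of *Slc16a3* also begins upstream of its window. Of 32851 promoter windows of the same length, 16.6% hold at least 1 match, 2.0% at least 2 and 0.3% at least 3. GCGTG, another form of the core, was not searched. It occurs on 1 strand or the other in the windows of *Ldhb* and of the other *Ldha* start, which are given as 0. ACGTG is also part of the E-box CACGTG that other factors bind, and a match is a description of letters, not a bound site.

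Around the 5 genes, 49 further genes that make, use, carry or regulate pyruvate and lactate were taken from a fixed list. Of the 42 tested in Ctrl, 4 rose in IL and 1 fell (9 and 3 with the mouse as a block), where 4.18% and 3.33% of all genes were called in those directions (10.2% and 10.3% with the block), with a median log2 difference of -0.02 beside -0.03 over all genes. In cKO 43 were tested, of which 9 rose and 4 fell (8 and 3 with the block), where 12.3% and 10.8% of all genes were called (8.49% and 6.18% with the block), with a median of 0.08 beside 0.01. *Pkm*, which makes pyruvate at the end of glycolysis, went from 985 ± 262 to 2302 ± 255 CPM in Ctrl (SD, n = 4 each, log2 difference 1.34, adjusted p = 0.00909, limma) and from 933 ± 165 to 2116 ± 228 CPM in cKO (n = 3 each, 1.26, adjusted p = 0.00416). *Hif1a*, the oxygen-regulated subunit of HIF-1, went from 238 ± 18.1 to 440 ± 42.8 CPM in Ctrl (0.96, adjusted p = 0.00526) and from 306 ± 75.9 to 558 ± 80.3 CPM in cKO (0.95, adjusted p = 0.0145). In Ctrl both calls held without any 1 library, though that of *Pkm* was lost with no filter on low values (adjusted p = 0.0665), and in cKO that of *Hif1a* was lost without the IL library of mouse 791 (adjusted p = 0.055).

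Of the 6 enzymes that shuttle NADH between cytosol and mitochondria, a route that competes with lactate dehydrogenase for NADH, 1 rose in Ctrl and 4 rose in cKO, where 4.18% and 12.3% of all genes were called higher and no difference between the genotypes was called. *Got1*, the cytosolic aspartate transaminase, rose in both (log2 difference 0.88, adjusted p = 0.0331 in Ctrl and 0.99, adjusted p = 0.00542 in cKO). *Got2* (1.01, adjusted p = 0.00439), *Gpd2* (0.81, adjusted p = 0.00767) and *Mdh2* (0.53, adjusted p = 0.0105) rose in cKO, and had 0.49, 0.66 and 0.45 in Ctrl, not called without the block. With it *Gpd2* (adjusted p = 0.0125) and *Mdh2* (0.0142) were called there. In cKO the call of *Mdh2* was lost with the mouse as a random effect (adjusted p = 0.0539) and with all 14 libraries in a single fit (0.243). *Mdh1*, the cytosolic malate dehydrogenase, averaged 267 CPM in Ctrl CL and 263 CPM in Ctrl IL, and was not called in either genotype. Of the 13 genes of the mitochondrial pyruvate carrier, the pyruvate dehydrogenase complex and its kinases and phosphatases, 4 were called in cKO and 0 in Ctrl (limma, with 2 in Ctrl at an unadjusted p under 0.05), beside 23.1% and 7.52% of all genes, so the counts are near the background, and no difference between the genotypes was called. In cKO *Pdk1* (-0.39, adjusted p = 0.0434) and *Pdk2* (-0.64, adjusted p = 0.0268), kinases that switch off pyruvate dehydrogenase, fell and *Pdk3* (0.65, adjusted p = 0.0262), a kinase of the same family, rose. *Mpc2*, a subunit of the mitochondrial pyruvate carrier, rose in cKO (0.32, adjusted p = 0.0467) but was not called under any of the other 3 scalings, and its partner *Mpc1* was not called (0.13, adjusted p = 0.301). With the block the calls of *Pdk1* (adjusted p = 0.123), *Pdk2* (0.0668) and *Mpc2* (0.253) were lost. Of the 5 genes of the pyruvate dehydrogenase complex 0 were called in either genotype (limma), beside 7.52% of all genes called in Ctrl and 23.1% in cKO. In each genotype 2 had an unadjusted p under 0.05, beside 3594 of all 16376 genes in Ctrl and 6225 of 16758 in cKO. The block called *Pdha1* (0.40, adjusted p = 0.0169) and *Dlat* (0.47, adjusted p = 0.0153) in Ctrl.

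Of the other *Slc16a* genes, 10 were tested in Ctrl, where 1 was called higher in IL and 1 lower. In cKO 11 were tested, where 1 was called higher and 2 lower. Over all genes 4.18% were called higher and 3.33% lower in Ctrl, and 12.3% and 10.8% in cKO. Most of the family was not called. *Slc16a7*, which encodes MCT2, a high-affinity transporter, fell in Ctrl from 29.0 ± 5.25 to 16.0 ± 3.13 CPM (-0.73, adjusted p = 0.0361) and in cKO from 28.6 ± 0.423 to 13.6 ± 2.15 CPM (-0.97, adjusted p = 0.00321). *Slc16a10*, an aromatic amino acid transporter of the same family, rose in Ctrl (0.86, adjusted p = 0.0278) and in cKO (0.59, adjusted p = 0.0359, or 0.0514 with the block). *Slc16a6* fell in cKO (-0.53, adjusted p = 0.00986) and had -0.42 in Ctrl, called with the block (adjusted p = 0.00881). *Bsg*, which encodes basigin, the partner that carries MCT1 and MCT4 to the membrane, stood at 593 ± 101 CPM in Ctrl CL and 536 ± 64.8 CPM in Ctrl IL, and was not called in Ctrl (-0.05, adjusted p = 0.935) or in cKO (0.16, adjusted p = 0.351). *Myc*, a regulator that acts on *Ldha*, had a log2 difference of -0.88 in Ctrl (adjusted p = 0.172) and -0.62 in cKO (adjusted p = 0.0544), and the block called it in both (adjusted p = 0.00882 and 0.0206). The block also called *Emb*, the partner embigin, as higher in IL in both genotypes (0.66, adjusted p = 0.0132 and 0.80, adjusted p = 0.0398), which along with *Pdha1* and *Dlat* is named here after its values were seen. Leaving out 1 library at a time ended the calls of *Got1* (4 of 8 omissions), *Slc16a7* (6 of 8) and *Slc16a10* (6 of 8) in Ctrl, and those of *Mpc2*, *Pdk1* and *Pdk2* (5 of 6 each) and *Pdk3* and *Slc16a10* (4 of 6 each) in cKO. Between the genotypes 0 of 42 genes of the list were called in IL and 0 of 43 in CL, with 3 and 2 at an unadjusted p under 0.05 (limma). Over all genes 0.668% were called in IL and 0.903% in CL. An unadjusted p under 0.05 was found for 1562 of 16919 genes in IL and 1688 of 16603 in CL. The interaction was called for 0 of 43, with 0 at an unadjusted p under 0.05, beside 490 of 18476 over all genes.

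**Figure D5:**
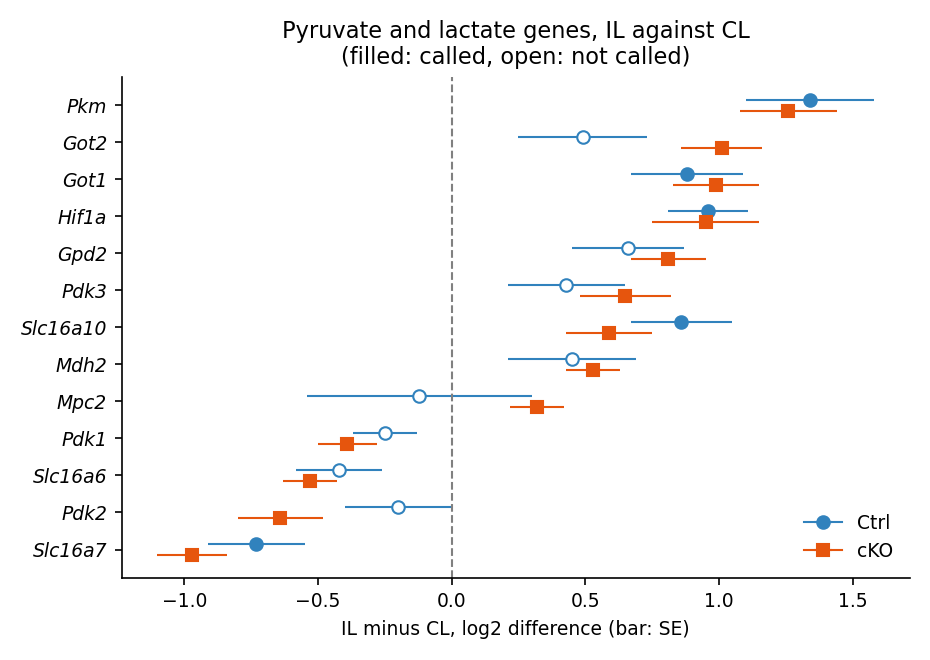
Log2 difference of IL minus CL (x axis, bars are SE) for the 13 pyruvate and lactate genes of the list called in at least 1 genotype (y axis), with circles for Ctrl and squares for cKO, filled where called. *Pkm* lies farthest to the right at 1.34 in Ctrl, *Slc16a7* farthest to the left at -0.97 in cKO, and *Mpc2* alone has its 2 points on opposite sides of 0.

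The genes whose levels ran most like each of the 5 were ranked by Pearson's r of log2 CPM over the 14 libraries, among 9756 genes of sufficient level. These are descriptions, since the libraries fall into 4 groups and r holds the differences between them. Closest to *Ldha* were *Tpi1* (r = 0.993), *Gm9247* (0.991), *Gm4735* (0.979), *Eno1b* (0.978) and *Pgam1* (0.978). *Tpi1* and *Pgam1* encode glycolysis enzymes, *Eno1b* is a close copy of the enolase gene *Eno1* with which it may share reads, and *Gm9247* and *Gm4735* are processed pseudogenes, of which *Gm9247* shares 50-base stretches with *Ldha* itself. Closest to *Slc16a3* were *Ero1l* (0.938), *Cd14* (0.935), *Sqstm1* (0.935), *Pgm1* (0.934) and *Tes* (0.932), and *Ldha* with *Slc16a3* gave 0.904. Closest to *Slc16a1* were *Tufm* (0.913), *Tmem97* (0.907), *Oat* (0.907), *Zdhhc16* (0.897) and *Prps1* (0.895). *Ldhb* ran with *Ldhb-ps* (0.997), *Tpm3* (0.991), *Fcrls* (0.990), *AI506816* (0.981) and *Prcc* (0.959), and *Lactb* (0.963) was among the closest to *Ldhb-ps*. The difference between the genotypes is seen in each of these, as *Fcrls*, a microglial surface receptor gene, averaged 3465 and 3371 CPM in Ctrl CL and IL against 409 and 422 CPM in cKO, and *AI506816*, a noncoding transcript, 79.0 and 94.9 CPM against 1.03 and 1.22 CPM. *Ldha* and *Ldhb* themselves gave r = -0.057.

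Over all genes, 0.668% were called between the genotypes in IL and 0.903% in CL. Within 500 kb of *Ldhb*, 7 other genes were tested between the genotypes, of which 0 were called in IL (limma) and 2 in CL. Those 2, *Abcc9* (0.876 ± 0.217 CPM in Ctrl and 4.66 ± 1.02 CPM in cKO, adjusted p = 0.00611) and *St8sia1* (2.04 ± 0.235 and 6.94 ± 2.23 CPM, adjusted p = 0.0239), had low levels and were higher in cKO, opposite to *Ldhb*. Around *Slc16a1*, *Capza1*, an actin capping gene, was called in both hemispheres, with 335 ± 39.0 CPM in Ctrl and 97.0 ± 10.1 CPM in cKO in CL (log2 difference -1.74, adjusted p = 0.000773) and 383 ± 24.3 and 120 ± 5.95 CPM in IL (-1.65, adjusted p = 0.000655). It was the only gene called there of 14 tested in CL and 15 in IL. No gene within 500 kb of *Ldha* (14 tested in CL, 15 in IL), *Ldhb-ps* (5 in each) or *Slc16a3* (43 and 40) was called.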

How the data were processed

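RNA of CD11b+ cells had been extracted with the Direct-zol kit, made into Smart Seq v4 libraries, sequenced paired-end and aligned by the authors to mm10 with STAR, and quantified in Partek Flow (Partek 8.0 in the submitters' processing notes). The authors deposited a table named raw counts in which each library sums to 1000000, so the deposited values are CPM. Below 100 reads, 79.0 to 83.5% of the values of a library came out as whole reads (tolerance 0.03), too few for whole reads to be recovered, and the tests designed for counts were replaced by limma. The step gave the depths. The authors' tables of their own comparisons (fold changes and p-values) were not used. Counting error and the spread between libraries set the precision, and no interval for counting was computed.

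CPM were divided by factors from the trimmed mean of M-values (TMM, unweighted, 30% of M and 5% of A values trimmed) of each fit's own libraries. Genes entered with at least the CPM of 10 reads (0.288 to 0.353 CPM) in as many libraries as the smaller group and 15 reads in total. limma 3.58.1 in R 4.3.3 fitted log2(CPM + 1) with a variance trend, so a log2 difference understates the change of low genes. Comparisons were IL against CL in each genotype, cKO against Ctrl in each hemisphere and their interaction. Single values were tested by exact two-sided permutation in SciPy 1.17.1. The libraries were permuted freely, so the pairing of hemispheres within a mouse was not kept. Sums and shares used deposited CPM. The scripts were tested on simulated data. Gene names and positions came from GENCODE M21 (33802 of 33939 IDs named), and promoter sequences from RefSeq (GRCm38.p6). Other tools were Python 3.11.15, pandas 2.3.3, NumPy 2.4.6, Biopython 1.88 and Matplotlib 3.10.9.

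The genes named are the 5 members, genes of the pyruvate and lactate list that were called or were among the 4 most abundant others, the 5 genes most like each member with a mean of at least 3 on the log2 scale, called neighbours within 500 kb, and marker lists. The targeted gene is not reported here. The members and lists were chosen with earlier results of these data known. The mouse numbers of the labels pair the hemispheres. After removal of group means, the 2 hemispheres of the same mouse correlated in 6 of 6 mice (r from 0.184 to 0.604), against -0.529 to 0.498, median -0.218, in 19 other pairs of the same genotype. The numbers 784 (IL) and 788 (CL) were taken as different mice. Alternatives were other scalings, pseudocounts of 0.5 and 0.1, other filters, all 14 libraries in a single fit, the mouse as a block or a random effect, a 2-fold minimum, and the omission of each library in turn.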

Additional observations from a re-analysis of the deposited data

How the results depend on the processing

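No alternative turned the direction of any of the 5 genes between IL and CL in either genotype. Calls of genes in IL against CL in Ctrl, 1231 as fitted, were 545 with no filter on low values, 2055 with all 14 libraries in a single fit, 3349 with the mouse as a fixed replicate block, 4414 with the mouse as a random effect, 572 at a fold change of at least 2, and 571 to 1660 without 1 library. In cKO, 3870 as fitted, they were 2507 with no filter, 1567 in the single fit, 2458 with the fixed block, 813 at a fold change of at least 2, and 1949 to 3629 without 1 library. For cKO against Ctrl in IL, 113 as fitted, they were 66 with no filter, 188 with the mouse as a random effect and 44 to 294 without 1 library. The highest came without the Ctrl IL library of mouse 3546, the shallowest of all. In CL, 150 as fitted, they were 78 with no filter, 96 with 10 reads in every library, 277 in the single fit, 296 with the random effect and 67 to 161 without 1 library. The interaction went from 0 to 5 genes with the random effect, none of them one of the 5, and from 0 to 1 without 1 library. Without further scaling the calls between hemispheres split 625 higher and 814 lower in Ctrl (685 and 546 as fitted) and 1647 and 2146 in cKO (2067 and 1803). With upper-quartile scaling they split 659 and 737, and 1784 and 2136.

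*Ldha* in Ctrl was called at 0.92 without further scaling (adjusted p = 0.0489), at 1.01 in the single fit (0.0364) and with the random effect (0.00124), at 1.0 with the block, and ran from 0.78 to 1.2 without 1 library. *Ldhb* and *Ldhb-ps* in Ctrl were called at -0.36 with the random effect (0.0378 and 0.0379) and at -0.37 with the block. *Slc16a3* in Ctrl was not called at 0.78 with no filter (0.145) or at 0.79 in the single fit (0.0518), and ran from 0.62 to 0.92 without 1 library. In cKO it was not called at 0.98 with no filter (0.0975) or at 0.95 in the single fit (0.053), and ran from 0.67 to 1.21. *Ldhb* in cKO ran from -0.50 to -0.28 without 1 library, and *Slc16a1* in cKO was called at 0.57 with the block. The replicate block changed no other call of the 5 genes. The causes were not tested. Of the other genes, calls lost with no filter were those of *Pkm* (0.0665), *Got1* (0.143), *Slc16a7* (0.063) and *Slc16a10* (0.0804) in Ctrl, and *Mpc2* (0.0873), *Pdk1* (0.1), *Pdk2* (0.0607) and *Slc16a10* (0.0624) in cKO. The single fit lost those of *Mdh2* (0.243), *Mpc2* (0.726), *Pdk1* (0.0631), *Pdk2* (0.0569), *Pdk3* (0.133) and *Slc16a10* (0.121) in cKO. Some values near 0 changed sign. Among them were the interaction of *Ldhb* (0.01 with no filter, -0.19 to 0.05 without 1 library), *Ldhb-ps* (-0.21 to 0.05), *Ldha* (-0.01 to 0.41) and *Slc16a3* (-0.16 to 0.39), and the difference in *Ldhb-ps* per 100 reads of *Ldhb* between hemispheres (-0.485 to 0.719 in Ctrl, -3.9 to 0.992 in cKO). Between genotypes without 1 library, *Ldha* ran from -0.30 to 0.13 in CL and from -0.03 to 0.34 in IL, and *Slc16a3* from -0.22 to 0.21 and from -0.09 to 0.42, with -0.01 in CL with the random effect. Scaling by TMM over all 14 libraries moved no sum in Ctrl across the 0.05 threshold of the permutation test. Shares do not change under scaling, and in cKO the permutation p cannot go under 0.1, so neither could cross it. Depths from 12.2 M reads and groups of 3 and 4 limit the precision.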
